A study of Mus musculus with 4 samples.

Results

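Mitosis genes are described here across the maxilla, the mandible, the ilium and the femur of male C57BL/6 mice aged 35 days, with 1 Agilent whole mouse genome array per bone. The 10 genes, Mki67, Top2a, Cdk1, Ccnb1, Ccnb2, Plk1, Aurka, Aurkb, Bub1 and Birc5, were taken by their current symbol, by an older symbol (Cdc2a for Cdk1) or by the accession of the probe. They are 10 of 27591 genes named on the array, read by 16 of 41174 probes, and all 10 were among the 20610 genes tested. The series sets jaw bones (maxilla and mandible) against bones of the trunk and limbs (ilium and femur), and the labels name no treatment or engineered allele for any of the 4 samples. Total RNA was isolated from the excised bones. Whether marrow was removed, and how many mice stand behind each array, is not given in the sources used here.

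A cell enters mitosis when the kinase CDK1 is switched on by its partners, the B cyclins, and leaves it when those cyclins are destroyed. Polo-like and Aurora kinases drive the building of the spindle and the separation of the chromosomes, and a checkpoint holds the cell until every chromosome is attached. The genes for these proteins are transcribed mainly in the late part of the cell cycle, so in a tissue their RNA is known to follow the share of cycling cells. In the skeleton of a growing mouse, blood cell precursors of the marrow are the best known cycling population, beside growth plate cartilage, bone-forming precursors and, in the jaw, the tissues of teeth and lining epithelium.

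Late cell cycle genes share promoter elements, and the promoter sequences of 9 of the 10 genes, all but Aurkb, were read from RefSeq (GRCm38.p6). The window ran from 250 bases before to 50 bases after the annotated start, and both strands were searched. The CCAAT box is bound by the factor NF-Y. The cell cycle genes homology region, or CHR, is bound by complexes that repress these genes in resting cells and activate them late in the cycle, and it was searched by its core TTTGAA and by the variant TTCGAA. The 5 windows below are shown because they hold the element spacings that recur among the members, or none of the elements. Each is 150 bases long, ends just before the annotated start, reads 5′ to 3′ on the strand of the gene, and has CCAAT boxes (or ATTGG on the other strand) and CHR cores in capitals.
Ccnb1: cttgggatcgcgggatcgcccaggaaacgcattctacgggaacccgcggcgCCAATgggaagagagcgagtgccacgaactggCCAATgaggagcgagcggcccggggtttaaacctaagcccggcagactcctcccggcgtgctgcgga
Ccnb2: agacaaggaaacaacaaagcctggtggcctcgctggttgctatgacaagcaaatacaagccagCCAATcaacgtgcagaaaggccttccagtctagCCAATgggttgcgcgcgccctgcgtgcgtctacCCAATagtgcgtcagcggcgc
Cdk1: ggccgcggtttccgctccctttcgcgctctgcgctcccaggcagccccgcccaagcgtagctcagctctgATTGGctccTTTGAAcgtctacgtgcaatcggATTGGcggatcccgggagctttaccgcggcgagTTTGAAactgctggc
Aurka: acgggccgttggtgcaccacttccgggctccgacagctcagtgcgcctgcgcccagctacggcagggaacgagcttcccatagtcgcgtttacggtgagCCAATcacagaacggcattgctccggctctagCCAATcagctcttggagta
Birc5: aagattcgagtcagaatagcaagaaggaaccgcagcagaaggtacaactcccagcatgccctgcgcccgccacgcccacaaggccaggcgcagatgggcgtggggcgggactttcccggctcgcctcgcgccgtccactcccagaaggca

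These stretches lie at chr13:100786487-100786636 for Ccnb1, chr9:70421555-70421704 for Ccnb2, chr10:69352913-69353062 for Cdk1 and chr2:172370571-172370720 for Aurka, all on the minus strand, and at chr11:117849087-117849236 on the plus strand for Birc5. The 2 boxes of Ccnb1 and the 2 of Aurka start 32 bases apart. In Ccnb2 there are 3 boxes with 33 bases from each start to the next, and in Cdk1 2 boxes on the other strand start 32 bases apart. A pair of CCAAT boxes on 1 strand, 31 to 33 bases apart, was thus present in 4 of 9 member windows, against 0.794% of 32851 RefSeq windows of the same length. That range spans the spacings seen in these same windows, and no outside source for it is given here. The count of pairs is therefore a description and not a test. At least 1 CCAAT box was present in 8 of 9, against 37.4%, and at least 1 CHR core of either spelling in 7 of 9, against 19.2%. TTTGAA was in 6 member windows (17.9% of all windows) and TTCGAA in 2, Bub1 and Top2a (1.56%), and the Top2a window held both. A CHR core and a CCAAT box occurred together in 7 of 9 windows and in 7.52% of all. Neither was found in the Birc5 window, and no CHR core in that of Ccnb1. The CHR cores of Aurka and Ccnb2 lie in the searched window but outside the printed stretch. Counted from the annotated start, they lie at 32 to 37 in Aurka, and at -167 to -162 and 4 to 9 in Ccnb2. These matches describe letters in a window and not bound sites.

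**Figure D1:**
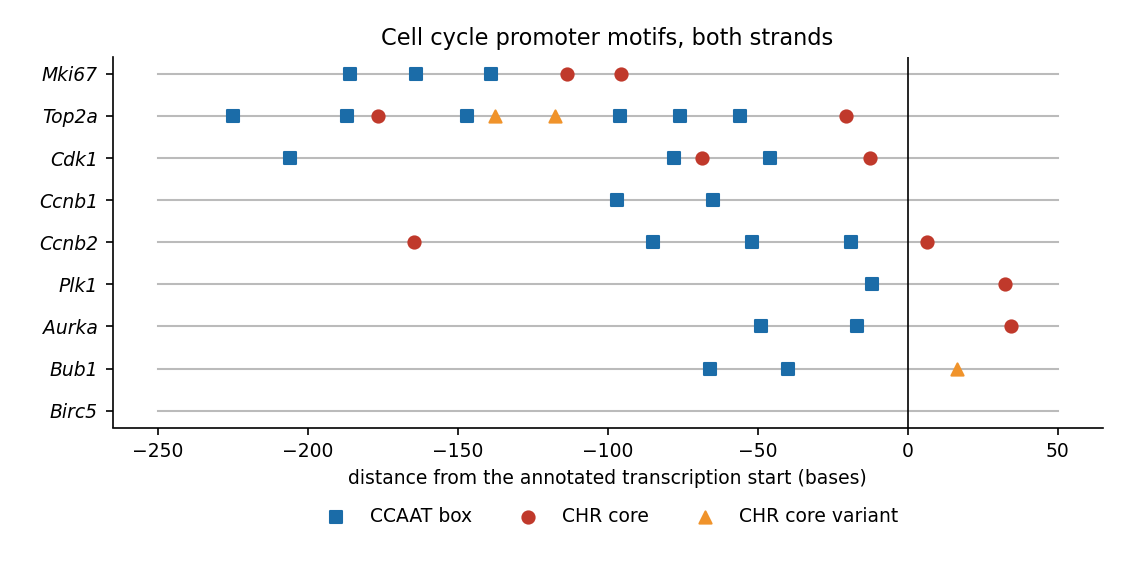
Position of CCAAT boxes (squares), the CHR core TTTGAA (circles) and its variant TTCGAA (triangles) on either strand, in bases from the annotated start of 9 mitosis genes, with grey lines for the window of 250 bases before to 50 after. CCAAT boxes were found in 8 of the 9 windows, and those of Ccnb1, Ccnb2, Cdk1 and Aurka hold pairs 32 or 33 bases apart.

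Expression is given as log2 of the processed signal after division by its 75th percentile on that array. This percentile was 1142 signal units on the ilium and mandible arrays, 1208 on the femur array and 809 on the maxilla array. Of 43379 spots, 72.8% to 75.5% were well above background on an array and 0 were saturated. Bone-forming tissue was present in every sample. The osteocalcin gene Bglap, a marker of mature osteoblasts, stood at 7.55 (ilium), 7.30 (femur), 7.85 (maxilla) and 8.06 (mandible). The jaw samples also held tooth and epithelial RNA, and the enamel gene Ambn stood at 4.51 in the maxilla and 6.98 in the mandible, against -5.24 in the ilium and -6.05 in the femur. Genes of the nasal lining were high in the maxilla sample, where Cyp2a5 stood at 7.18, against -2.82 in the mandible. In such whole-tissue samples, fewer cells of a type and less RNA per cell cannot be told apart.

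All 10 mitosis genes were lower in both jaw bones than in both trunk and limb bones. The fold difference between class means ran from 4.69 for Aurka to 7.54 for Ccnb2, and the median log2 difference was -2.39, against -0.03 over all genes tested. By limma, with the bone as the unit and Benjamini-Hochberg adjustment over all genes tested, 5 of the 10 were called lower in the jaw and 0 higher, where 7.24% of all genes were called lower and 4.51% higher (11.7% in either direction). The other 5 had adjusted p from 0.0518 to 0.0649. By a rule of size, which asks that the higher jaw bone lie at least 2-fold below the lower trunk or limb bone and uses no test, all 10 were lower and 0 higher, against 9.81% and 9.34% of all genes. The 2 classes did not overlap in any of the 10, as in 36.3% of all genes with the jaw lower. The 10 were well above background on all 4 arrays, so no member was measured only in the class where it was high, and none had an outlying spot.

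**Figure D2:**
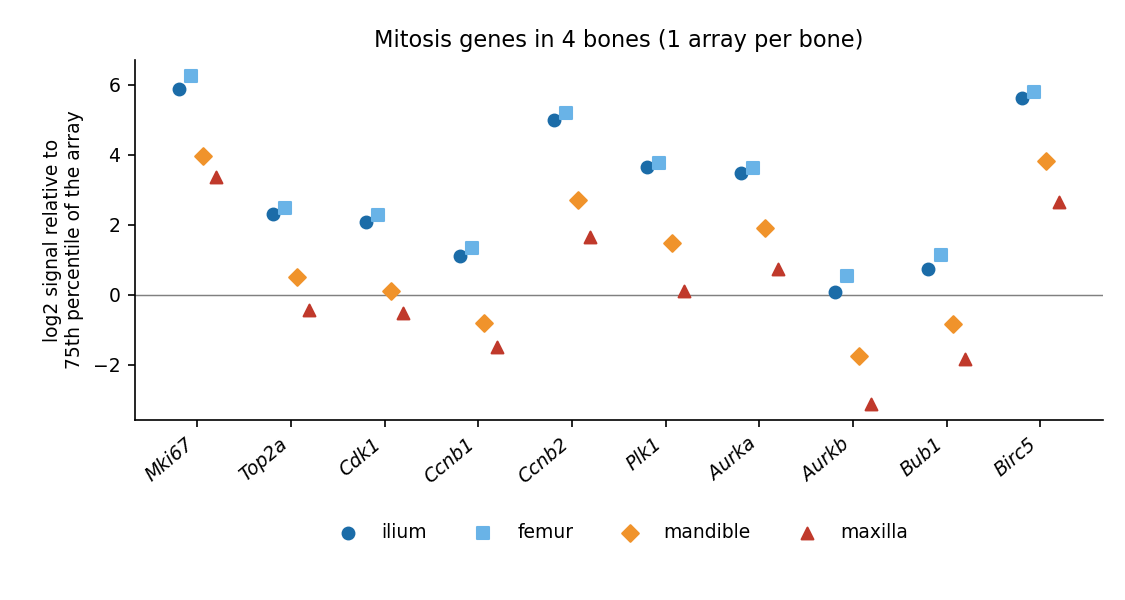
Log2 signal over the array's 75th percentile (vertical axis) for 10 mitosis genes in the ilium, femur, mandible and maxilla, 1 array each. In every gene both trunk and limb bones lie above the mandible and the mandible above the maxilla, while levels of different genes come from different probes and are not comparable.

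The mitotic kinase and its cyclins were called lower in the jaw. Cdk1, which encodes the kinase that starts mitosis, stood at 2.07 (ilium), 2.28 (femur), -0.52 (maxilla) and 0.10 (mandible). It was 5.22-fold lower in the jaw, and the class difference on the log2 scale was -2.38 ± 0.30 (SE; n = 2 bones in each class; limma adjusted p = 0.0343). Both jaw values lay under both others, and the higher jaw bone minus the lower trunk or limb bone was -1.97. Ccnb1, the gene for cyclin B1, stood at 1.11, 1.34, -1.49 and -0.80 in the ilium, femur, maxilla and mandible. Its difference of -2.37 ± 0.32 (limma adjusted p = 0.0366) was nearly that of Cdk1. Ccnb2, for the second B cyclin, stood at 4.98, 5.19, 1.64 and 2.70 in the same order. It had the largest difference of the 10, -2.92 ± 0.44 (limma adjusted p = 0.0402), with the classes again apart. Among all genes tested, 202 had a lower value of this difference than Ccnb2.

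Markers of chromosomes in cycling cells were called too. Mki67 encodes the nuclear protein widely stained to mark dividing cells, which coats mitotic chromosomes. It stood at 5.88 (ilium), 6.24 (femur), 3.36 (maxilla) and 3.98 (mandible), a difference of -2.39 ± 0.32 (limma adjusted p = 0.0358). The maxilla lay below the mandible (-0.61), a step near that of Cdk1 (-0.62) and within the spot error of it. Top2a, the gene for the topoisomerase that untangles sister chromosomes, stood at 2.30, 2.48, -0.42 and 0.50 in the ilium, femur, maxilla and mandible. Its difference was -2.35 ± 0.39 (limma adjusted p = 0.0462), with no overlap between the classes.

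The mitotic kinases of the spindle were as far apart between the classes but did not pass the threshold. Plk1, the polo-like kinase gene, stood at 3.66 (ilium), 3.75 (femur), 0.11 (maxilla) and 1.47 (mandible). Its difference of -2.91 was close to that of Ccnb2, while its error was larger (SE 0.53; limma adjusted p = 0.0518). Aurka, whose product acts at spindle poles, stood at 3.47, 3.63, 0.73 and 1.91 in the ilium, femur, maxilla and mandible. It had a difference of -2.23 ± 0.47 (limma adjusted p = 0.0649), the smallest of the 10. Aurkb, the kinase of the chromosomal passenger complex, stood at 0.09, 0.55, -3.10 and -1.74 in the same order. Its difference was -2.74 ± 0.56 (limma adjusted p = 0.0605). In all 3 kinase genes the mandible lay between the maxilla and the trunk and limb bones.

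The last 2 members belong to the passenger complex and to the checkpoint. Birc5 encodes survivin, the passenger subunit that brings Aurora B to centromeres, and stood at 5.63 (ilium), 5.81 (femur), 2.65 (maxilla) and 3.82 (mandible). Its difference was -2.49 ± 0.47 (limma adjusted p = 0.0543). Bub1, a checkpoint kinase gene, stood at 0.75, 1.14, -1.83 and -0.84 in the same order, a difference of -2.28 ± 0.43 (limma adjusted p = 0.0543). In both genes the 2 classes were separate, by gaps of -1.82 and -1.59.

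The 5 called and the 5 uncalled members were not set apart by the size of their difference. Over the 10 genes the differences lay between -2.92 and -2.23, and the standard errors between 0.30 and 0.56. In the main fit, with 2 residual degrees of freedom, the smallest limma adjusted p of any gene was 0.0326. That value is no limit set by the 4 arrays. Mki67, Cdk1 and Ccnb1 had lower adjusted p on the same arrays under normexp background correction. The same held for these genes when only genes well above background on all 4 arrays were tested. Which members passed also depended on single bones and on the filter. Without the ilium or without the femur limma called 0 of the 10 (10 and 9 at an unadjusted p under 0.05), and without the maxilla or without the mandible it called all 10. The calls over all genes moved with them: limma called 0 genes lower in the jaw without the ilium or the femur (3335 and 2520 genes at an unadjusted p under 0.05 in either direction), 3376 without the maxilla and 4272 without the mandible, against 1492 with all 4 bones. With a trunk or limb bone left out the spread came from the 2 jaw bones alone, and with a jaw bone left out from the ilium and femur alone. Restricting the test to genes well above background on all 4 arrays gave 8 calls, normexp background correction 9, and no filter 1. Over all genes, limma called 1624, 1499 and 722 lower in the jaw under these settings in the same order, against 1492 in the main fit. Each of the 10 differences was negative in all 12 alternatives run.

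**Figure D3:**
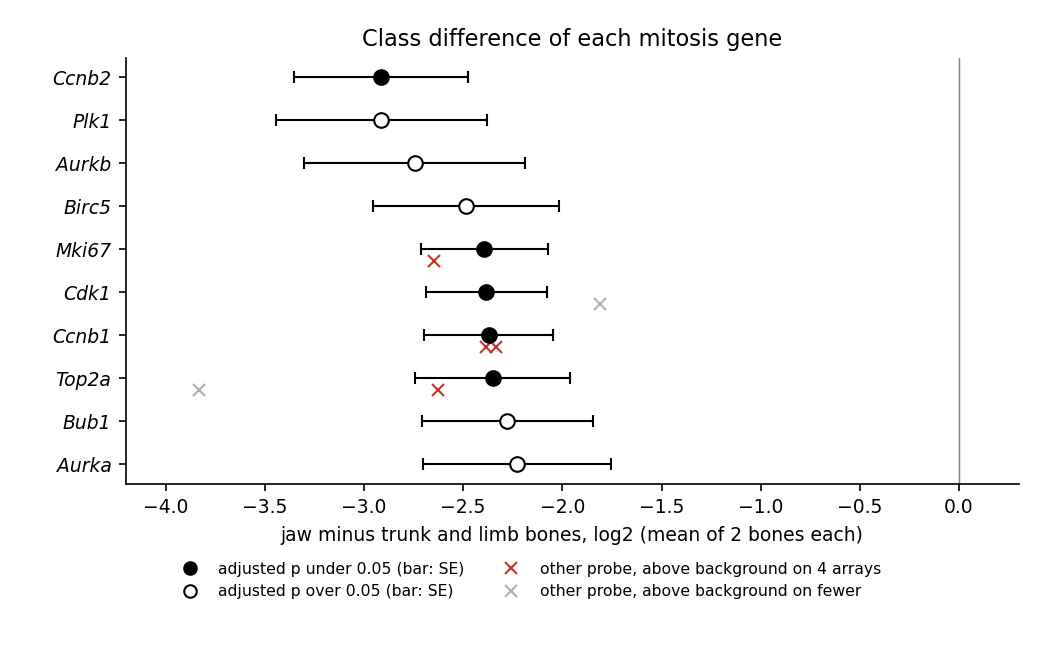
Log2 difference of jaw minus trunk and limb bones for each mitosis gene (circles, with SE as bars, 2 bones per class), filled where the limma adjusted p was under 0.05, and crosses for other probes of the same gene. The circles lie between -2.92 and -2.23, and the probes well above background on 4 arrays lie near the circle of their gene.

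Mki67, Top2a, Cdk1 and Ccnb1 had more than 1 probe, which read the same RNA samples again. The probe used for Mki67 lies on chromosome 7 from 135528251 to 135528310 (mm8, minus strand), and another at 135532672 to 135532731 gave a difference of -2.65. For Ccnb1 the probe used, on chromosome 13 from 101879936 to 101879995, gave -2.37, and the 2 others, at 101879670 to 101879729 and at 101879276 to 101879335, gave -2.33 and -2.38. Top2a was read on chromosome 11 by the probe placed at 98812020 to 98812834, with -2.35, and by another from 98831137 to 98832164 that gave -2.63. Among probes well above background on all arrays, the second readings thus lay close to those used. Another Top2a probe was well above background on 2 of 4 arrays and gave -3.83. The second Cdk1 probe was well above background on 0 arrays, so its value of -1.81 is no measurement.

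All 10 genes were lower in the maxilla than in the mandible, as were 54.5% of all genes. The log2 difference of maxilla minus mandible ran from -1.36 for Aurkb and Plk1 to -0.61 for Mki67, with a median of -1.02, against -0.07 over all genes tested. There was 1 array per bone and so no test. Past 2-fold, 5 members (Ccnb2, Plk1, Aurka, Aurkb and Birc5) were lower in the maxilla and 0 higher, where 8.44% of all genes were lower and 13.8% higher. The scanner program's own error for a spot, about 0.14 on the log2 scale for these probes, gives an error of 0.20 to 0.21 for a difference of 2 arrays. By this measure, which covers the reading of a spot and not the spread between animals, all 10 differences were over 2 errors from 0. The median difference was -0.84 under normexp and -1.30 in the authors' series table, which scales the arrays differently. The number of members past 2-fold also changed, to 4 under normexp, 6 under quantile normalization, and 7 under median centring and in the series table. Under normexp Aurkb had -0.79 and was no longer past 2-fold.

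The ilium and the femur were nearly alike. The difference of ilium minus femur ran from -0.45 for Aurkb to -0.09 for Plk1 with a median of -0.21, against -0.05 over all genes, and 0 members were past 2-fold (1.72% of all genes were lower in the ilium by that much and 2.47% higher). All 10 were slightly higher in the femur, as were 57.7% of all genes, but among the 10 only the difference of Aurkb exceeded 2 spot errors. The order femur, ilium, mandible, maxilla from high to low held for all 10 members and for 17.9% of all genes, a comparison made after the values were seen. The neighbours ilium and femur in that order are not separated by these data.

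Of 105 genes in 11 further lists of cell division, which include replication genes, G1 regulators and inhibitors of the cycle, limma called 48 lower in the jaw and 1 higher. Over all genes tested, 7.24% were called lower and 4.51% higher. All 105 were tested, and 99 had a negative difference, where the median difference of all genes was -0.03. By the size rule 84 were lower and 2 higher, against 9.81% and 9.34% of all genes. In 96 of the 105, both trunk and limb bones lay over the mandible and the mandible over the maxilla, as in 23.2% of all genes. Without the ilium or without the femur limma called 0 of these genes, against 91 without the maxilla and 92 without the mandible (49 with all bones).

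Among regulators of mitotic entry limma called 3 of 9 lower and 0 higher, and the median was -2.23. The 3 were Cdc25b, a phosphatase that activates CDK1 (-2.86 ± 0.49, limma adjusted p = 0.048), Mybl2, a transcription factor of late cell cycle genes (-2.76 ± 0.28, limma adjusted p = 0.0326), and Ccna2, the gene for cyclin A2 (-2.59 ± 0.38, limma adjusted p = 0.0391). Wee1, whose kinase holds CDK1 inactive, had the smallest difference, -0.07 ± 0.25. Its sign turned under normexp and without the femur or the maxilla. Of 7 spindle checkpoint genes (median -1.92) 1 was called, Mad2l1 (-1.92 ± 0.24, limma adjusted p = 0.0343, named after its value was seen). The checkpoint kinase gene Ttk had -2.35 ± 0.59, Zwilch -2.33 ± 0.45 and Bub1b -2.29 ± 0.43, each short of the threshold, and Zwint -0.35 ± 0.21.

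The anaphase-promoting complex, the ubiquitin ligase that ends mitosis by marking cyclins for destruction, gave a split picture. Of its 11 genes (median -1.07) 3 were called lower and 0 higher. Ube2c, its ubiquitin-conjugating enzyme, was called at -2.95 ± 0.42 (limma adjusted p = 0.0379), and so was its inhibitor Fbxo5 at -2.65 ± 0.34 (0.0343 by the same measure). The activator gene Fzr1 was called at -2.13 ± 0.30 (limma adjusted p = 0.0368). Another activator gene, Cdc20, had the larger difference of -2.39 ± 0.48 without a call (limma adjusted p = 0.0598). Fzr1 and Cdc20 were named after their values were seen. Espl1, which encodes the protease that cuts cohesin, had -2.76 ± 0.55 without a call. The genes of core subunits had small differences without a call, from -0.70 for Anapc5 (named after its value was seen, as Anapc1 was) to -0.21 for Anapc2. Other Anapc1 probes well above background gave -0.17 to 0.77, against -0.64 for the probe used.

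Genes that build the kinetochore and the spindle all had negative differences, over a wider range than the members, from -3.37 for Kif18b to -1.85 for Spc24. Of 13 kinetochore and centromere genes (median -2.36) limma called 8 lower, and all 13 were lower by the size rule. Ndc80, of the microtubule-binding complex, had -2.52 ± 0.42 (limma adjusted p = 0.0467), Ska1 -2.49 ± 0.41 and Kntc1 -2.46 ± 0.41, all called, and Spc24 had the smallest difference, -1.85 ± 0.46, without a call. Of 14 spindle motor and assembly genes (median -2.46) 10 were called lower, and all 14 met the size rule. The kinesin gene Kif18b had the largest difference, -3.37 ± 0.66, but was not called, whereas Kifc1 (-2.70 ± 0.45) and Spag5 (-2.67 ± 0.44) were called, as was Ckap2 with the smallest (-1.93 ± 0.31). Of 5 passenger and cohesion protection genes (median -2.61), 4 were called: Sgo1, a shugoshin gene (-2.66 ± 0.43), Haspin (-2.62 ± 0.31), Cdca8 (-2.61 ± 0.45) and Sgo2a (-2.26 ± 0.34). Incenp had -2.19 ± 0.51 without a call.

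Condensin genes, whose products compact chromosomes, gave 2 calls among 8 (median -1.89), Ncapg (-2.46 ± 0.36) and Smc2 (-2.07 ± 0.24, named after its value was seen). Ncaph (-2.59 ± 0.46) and Ncapd2 (-2.52 ± 0.57) were not called, and Ncaph2, of the second condensin complex, had -0.93 ± 0.31. For cytokinesis, 5 of 9 genes were called (median -2.19). Citron kinase (Cit, -2.55 ± 0.41), the kinesin Kif23 (-2.41 ± 0.41) and anillin (Anln, -2.37 ± 0.42) were among them, and Cep55 had the smallest difference, -1.44 ± 0.37, without a call. DNA replication genes, which act in S phase before mitosis, were called lower in 10 of 14 cases (median -2.14), and all 14 met the size rule. Their range ran from Cdc6 (-3.16 ± 0.41, called) through Ccne1 (-2.86 ± 0.38, called) and Mcm2 (-2.72 ± 0.39, called) to Mcm6 (-1.75 ± 0.38, limma adjusted p = 0.0674).

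Regulators of the G1 phase and inhibitors of the cycle did not share 1 direction. Of 6 G1 cyclin and kinase genes, limma called 2 lower and 1 higher. Ccnd3, a D cyclin gene, stood at 4.42 (ilium), 4.55 (femur), 2.18 (maxilla) and 2.60 (mandible), a difference of -2.09 ± 0.25 (limma adjusted p = 0.0335), and Cdk6, for a kinase that pairs with D cyclins, had -1.77 ± 0.20 (limma adjusted p = 0.0326). Ccnd1, the gene for cyclin D1, went the other way, with 0.60, 0.17, 2.18 and 2.05 in the ilium, femur, maxilla and mandible (1.73 ± 0.25, limma adjusted p = 0.0383). Ccnd2 had 0.68 ± 0.26, Cdk4 -0.47 ± 0.32 and Cdk2 -1.64 ± 0.35, none called. Among 9 genes of CDK inhibitors and pocket proteins, 0 were called by limma, with 6 at an unadjusted p under 0.05. Cdkn2d (-2.14 ± 0.43), Rbl1 (-1.86 ± 0.36) and Cdkn2c (-1.63 ± 0.30) had negative differences. Cdkn1a, for the inhibitor p21 (1.70 ± 0.52), Cdkn2b (1.62 ± 0.29) and Cdkn1c (1.55 ± 0.64) had positive ones, and Rbl2 had 0.00 ± 0.25, whose sign turned in 6 alternatives.

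**Figure D4:**
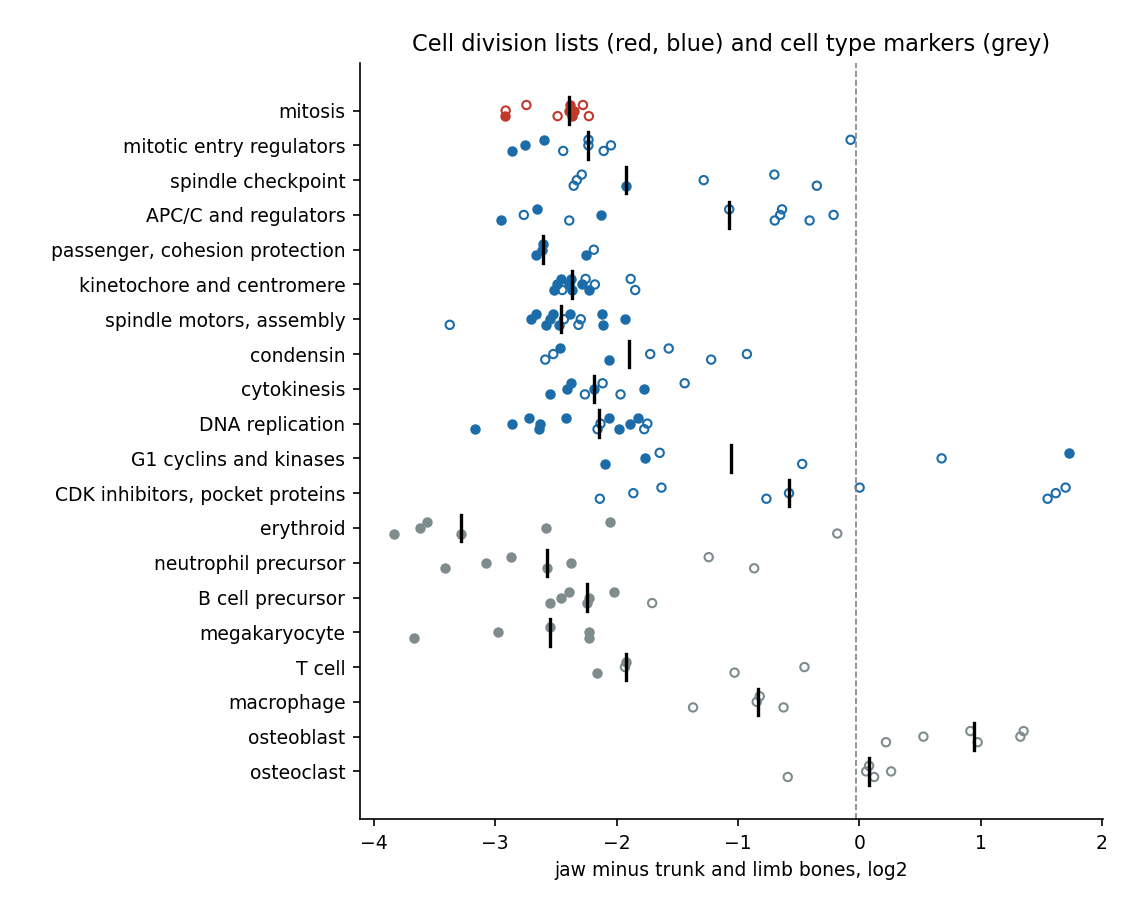
Log2 difference of jaw minus trunk and limb bones for each gene of the cell division lists (mitosis in red, others in blue) and of cell type marker lists (grey), filled where the limma adjusted p was under 0.05, with a black bar at each list's median and a dashed line at the median of all genes tested, -0.03. List medians of the cell division genes run from -2.61 for passenger complex and cohesion genes, through -2.39 for the mitosis genes and -1.92 for the spindle checkpoint, to -1.07 for the anaphase-promoting complex, -1.06 for G1 regulators and -0.58 for CDK inhibitors.

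The genes whose pattern over the 4 bones was most like the mean of the members, by the root mean square distance of centred log2 values among 18389 other genes well above background on all arrays, were Ska1 (0.0118), Ndc80 (0.0189), Mmp8 (0.0361), Cdca3 (0.0387) and Bora (0.0398). Of the members, Birc5 lay closest to their mean (0.0657) and Plk1 farthest (0.247). Ska1, Ndc80 and Bora are in the lists above, and Cdca3 is a cell division gene outside them. Mmp8 encodes the collagenase of neutrophils. Its values were 4.72 (ilium), 5.02 (femur), 1.79 (maxilla) and 2.82 (mandible). With 4 bones, likeness of this kind only describes these arrays.

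Markers of marrow blood cells moved with the mitosis genes between the classes. Of 7 erythroid markers with a value, limma called 6 lower in the jaw (median -3.28), of 7 neutrophil precursor markers 5 (-2.57), of 7 B cell precursor markers 6 (-2.25) and of 5 megakaryocyte markers 5 (-2.55), with 0 higher in any. Over all genes tested, 7.24% were called lower and 4.51% higher. Klf1, an erythroid transcription factor gene, stood at 2.85 (ilium), 3.14 (femur), -1.17 (maxilla) and -0.07 (mandible). Mpo, the myeloperoxidase gene of neutrophil precursors, stood at 7.48, 7.40, 4.03 and 5.10 in the same order. Ltf, a gene of later neutrophil precursors in the same list, stood at 7.13, 7.16, 7.30 and 5.26 and was not low in the maxilla. All of these 26 markers were well above background on all 4 arrays, so none was at 0 in the jaw. The log2 of their summed level was 8.99 to 9.04 in the trunk and limb bones and 8.40 in both jaw bones for the erythroid list, whose sum is mostly Hba-a1 (difference -0.18). For neutrophil precursors it was 8.81 to 8.85 against 6.86 in the mandible and 7.70 in the maxilla, and the maxilla sum is mostly Ltf. It was 4.69 to 4.70 against 2.36 to 2.97 for B cell precursors and 6.95 to 7.22 against 4.45 to 4.91 for megakaryocytes. The part of these blood cells in the difference of the mitosis genes was not tested.

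Markers of other cells did not move alike. Of 5 T cell markers 2 were called lower by limma (median -1.92), and of 4 macrophage markers 0 (median -0.83, 3 at an unadjusted p under 0.05), where 7.24% of all genes were called lower. Among bone cells, limma called 0 of 6 osteoblast markers (median 0.95, 2 at an unadjusted p under 0.05) and 0 of 5 osteoclast markers (median 0.08, 0 at an unadjusted p under 0.05). Of 4 chondrocyte markers tested limma called 0 (median -0.84, 0 at an unadjusted p under 0.05). Their median difference of ilium minus femur was 2.74, so the 2 trunk and limb bones were not alike in them. All 5 stratified epithelium markers were called higher in the jaw (median 7.78), as were 4 of 5 tooth markers (median 10.74) and 4.51% of all genes. Krt15, Enam and Mmp20 were well above background on only 2 arrays and Dspp on 3. The first 3 thus entered the test only through the jaw arrays, where they were high. The size of their differences rests on background readings in the ilium and femur, so these calls are no independent support. Skeletal muscle markers were lowest in the maxilla, with a summed log2 level of 6.18 there against 8.77 in the mandible and 9.24 in the ilium and the femur. The nasal list summed to 8.39 in the maxilla and to -1.35 in the mandible. The part of these tissues in the values of the mitosis genes was not tested.

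The step between the 2 jaw bones was compared next. Relative to the ilium, the median of the mitosis genes was -1.87 in the mandible and -2.73 in the maxilla, and that of DNA replication genes -1.67 and -2.64. The neutrophil precursor median was -2.30 and -2.96, the erythroid median -2.91 and -3.24, the B cell precursor median -1.95 and -2.31 and the megakaryocyte median -2.26 and -2.47. Taken gene by gene, and not from the list medians above, maxilla minus mandible had a median of -1.02 over the mitosis genes. Over the 4 blood lists that median was -0.27 to -0.66, with 1 array per bone and no test of that contrast. Single blood markers reached the mitosis median, namely Klf1 (-1.10), Elane (-1.07) and Mpo (-1.06), while Igll1 (-0.94) and Prtn3 (-0.90) fell short of it. Ltf went the other way (2.04). These genes were picked out after their values were seen.

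**Figure D5:**
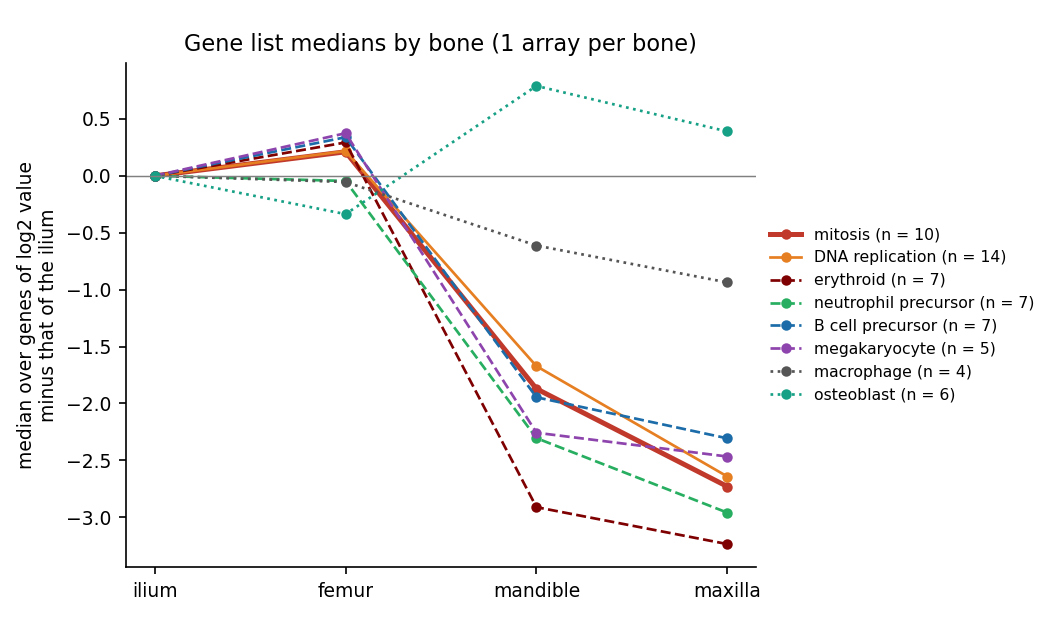
Median over the genes of a list of the log2 value minus that of the ilium (vertical axis), in the ilium, femur, mandible and maxilla, 1 array each, with lines that only join the points of a list. The mitosis genes reach -1.87 in the mandible and -2.73 in the maxilla. Erythroid, neutrophil precursor, B cell precursor and megakaryocyte lists lie near or below them in the mandible. Macrophage markers lie above them in both jaw bones (-0.61 in the mandible, -0.94 in the maxilla), and osteoblast markers lie above 0 in both.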

How the data were processed

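RNA from 4 bones was labelled with cyanine 3 and hybridised to 1 slide of 4 arrays, per the labels' protocols and the file headers. The authors read the intensity of each spot with version 9.5.3.1 of Agilent's Feature Extraction program, according to the submitters' processing notes. Its processed signal is background-subtracted and detrended, per the file headers. The deposited series table holds log2 ratios to the ilium made with GeneSpring 10.0.2, per the series description. Its femur, maxilla and mandible columns (medians 0.0233, -0.218 and -0.133) matched the scanner ratios after shifts of -0.096, 0.0955 and -0.1222, within 0.001 in 99.93% or more of the 41174 probes. How these shifts were chosen is not given in the sources used here.

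Here log2 processed signals were set relative to each array's 75th percentile, and spots with an outlier flag were left out. Probes were named through RefSeq (24496 by accession, 6234 by symbol, 2386 by an older symbol, 8058 by the name in the file). The brightest probe stood for a gene. Genes well above background on 2 or more arrays were tested with limma 3.58.1 in R 4.3.3 (lmFit, eBayes, threshold 0.05), after a check on simulated data. Classes were pairs of different bones, so p-values measure the spread between bones and not between animals. Position on the slide and bone cannot be told apart. The members and gene lists were chosen with earlier results of these data known. Named genes were all members and, per list, the largest and smallest differences, those of opposite sign and up to 2 more of the largest. Hbb-b1 had no value, and Matn1 and Matn3 were not tested.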

Additional observations from a re-analysis of the deposited data

How the results depend on the processing

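All 10 mitosis genes met the size rule in every alternative scaling, background correction, filter and probe rule run. The number called lower by limma was 5, and became 9 with normexp, 8 with the filter on all 4 arrays and 1 with no filter. Over all genes the number called lower was 1492, and became 1499, 1624 and 722 in the same order. Leaving out 1 bone gave 0 to 10 members, 0 to 92 pathway genes (91 without the maxilla, 49 with all bones) and 0 to 8021 genes over the whole array (6178 without the maxilla, 2421 with all bones). The 0 came without the ilium (3335 genes at an unadjusted p under 0.05) and without the femur (2520), where the spread comes from the 2 jaw bones alone, and the cause was not tested. Pathway calls were 75 with normexp, 28 with quantile normalization and 12 with no filter, and all calls 1118 with no filter, where more genes are tested. Of 2421 calls 38.4% were higher in the jaw, and 26.8% and 27.2% were under median centring and in the series table. Those moved the median of all genes to -0.28, since both add 1 constant per array. For single genes and medians, 1518 of 1949 alternative values kept their direction and side, 186 lost a call, 153 gained one, 92 moved and 0 called values changed sign. The cause of the other changes was not tested. No paired analysis was possible because the labels give no replicate numbers. With 1 array per bone, the number of arrays limits the precision.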
